A study of Mus musculus with 66 samples.

Results

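Expression of 7 genes of thyroid hormone transport, activation, reception and response was followed through 5 spontaneous *Rorb* mutant strains: *Slco1c1*, *Dio2*, *Dio3*, *Thra*, *Thrb*, *Hr* and *Klf9*, of 45706 identifiers in the files. All 7 were found by symbol. They were chosen by function together with the measured *Dio2* values of these libraries, which were lower in several of the mutants, and the question was whether the other 6 followed. The mutant values of *Dio2* are therefore given as a description with no test, the other 6 genes were tested in every comparison, and all 7 were tested between wild-type strains and tissues.

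RNA was sequenced from 66 libraries in 20 groups of mice 7.0 to 9.6 weeks old. Brain hemi-sections and spinal cords came from 3 wild-type C57BL/6J mice of 8.0 weeks, 3 *Rorb* h1/h1 mice of 8.0 weeks, 4 *Rorb* h2/h2 mice of 7.9 to 9.4 weeks, 4 *Rorb* h3/h3 mice of 8.0 to 9.6 weeks, 4 *Rorb* h4/h4 mice of 8.4 to 8.6 weeks, 3 wild-type DBA/1J mice of 8.4 to 8.9 weeks and 3 *Rorb* h5/h5 mice of 8.4 to 8.7 weeks. Cortex, hippocampus and cerebellum came from 3 DBA/1J and 3 *Rorb* h5/h5 mice of 7.0 weeks, other animals than those of the hemi-sections. Every mutant was homozygous, the labels give no treatment, and both sexes were used. The h1 allele arose on C57BL/6J and duplicates a region with the first exon of the *Rorb1* transcript, the h4 allele brings a premature stop into a strain that arose from B6.129S7-Il1r1 tm1/mx/J stock, whose name carries an *Il1r1* allele, and the h5 allele arose on DBA/1J and removes the start codon of *Rorb1*. The h2 and h3 alleles arose on albino B6(Cg)-Tyr c-2J/J, and their mutations were not identified. The same 3 C57BL/6J mice serve as controls for h1, h2, h3 and h4 in a tissue, so these 4 comparisons are not independent of each other, and the h2 to h4 strains also differ from C57BL/6J in the background they came from.

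Thyroid hormone reaches the brain mostly as thyroxine, a prohormone. *Slco1c1* encodes the transporter OATP1C1, which carries thyroxine across brain capillaries and into astrocytes. In astrocytes and in tanycytes of the third ventricle, the type II deiodinase encoded by *Dio2* turns thyroxine into the active hormone triiodothyronine, and the type III deiodinase encoded by *Dio3*, found mainly in neurons, inactivates both. The nuclear receptors encoded by *Thra* and *Thrb* bind triiodothyronine and control target genes, of which *Hr*, a corepressor, and *Klf9*, a transcription factor, are classical examples in the developing brain. *Klf9* is also induced by glucocorticoids.

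The sequences shown are the promoters of the 2 genes on which the comparisons below turn, *Dio2* and *Klf9*. In GRCm38, *Dio2* (ENSMUSG00000007682) lies at chr12:90724552-90739038 and *Klf9* (ENSMUSG00000033863) at chr19:23141226-23168129. Each sequence runs 5′ to 3′ on the gene's own strand, from 250 bases before the start site to 50 bases from it onward, as given by RefSeq for GRCm38.p6. The *Dio2* promoter is chr12:90738989-90739288 on the minus strand, and its capitals mark a cyclic AMP element, searched on both strands as TGACGTCA, which starts at position -95 and which 1.79% of 32851 promoters of this length hold. The *Klf9* promoter is chr19:23140976-23141275 on the plus strand, and its capitals mark TGACG, the shorter core of that element, which starts at position -46 and which 20.81% of promoters hold.
Dio2: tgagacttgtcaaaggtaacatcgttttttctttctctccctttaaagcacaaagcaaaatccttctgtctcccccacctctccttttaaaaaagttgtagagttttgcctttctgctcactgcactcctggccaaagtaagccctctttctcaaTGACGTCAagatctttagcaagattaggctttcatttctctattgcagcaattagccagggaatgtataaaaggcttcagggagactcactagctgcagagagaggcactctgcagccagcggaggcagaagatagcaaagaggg
Klf9: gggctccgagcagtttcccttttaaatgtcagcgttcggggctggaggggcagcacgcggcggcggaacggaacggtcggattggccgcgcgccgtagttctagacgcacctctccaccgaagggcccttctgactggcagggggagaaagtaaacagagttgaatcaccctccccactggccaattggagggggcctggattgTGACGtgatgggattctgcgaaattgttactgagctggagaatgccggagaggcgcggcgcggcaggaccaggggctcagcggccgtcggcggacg
RefSeq promoters were matched for 5 of the 7 genes, 6 promoters in all with a pair for *Thrb*. On either strand, the direct repeat to which thyroid hormone receptors bind, AGGTCA followed after any 4 bases by another AGGTCA, was in none of the 6 and in 0.01522% of all promoters. The ROR element TAGGTCA was in none of the 6 and in 2.606% of all. The single AGGTCA was in 1 *Thrb* promoter and in 16.26% of all, the E-box CACGTG in the *Slco1c1* promoter and a *Thrb* promoter and in 7.15% of all, and AGAACA, a glucocorticoid receptor core, in a *Thrb* promoter and in 18.97% of all. TGACG, which also lies within the palindrome TGACGTCA, was in 1 *Thrb* promoter as well. A match says only that these letters are present in this window.

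Libraries held 32889755 to 59120536 counts, with a median of 42391893. Markers of spinal cord, cortex, hippocampus and cerebellum were highest in the tissue of that label: the lowest sum of 4 spinal cord *Hox* genes was 171.1 in cord, in TPM (transcript abundance scaled for length and for library total), and the highest was 7.67 elsewhere. *Rorb* itself was at 25.8% of the C57BL/6J mean TPM in h4 brain and 24.9% in h4 spinal cord, 52.1% and 61.8% in h2, 63.7% and 76.7% in h1, and 95.8% and 98.3% in h3, while in h5 it was at 120.1% to 172.4% of DBA/1J in the 5 tissues. The third *Rorb* h5/h5 mouse of cortex, hippocampus and cerebellum was labelled female but had *Ddx3y* at 57.85 to 86.23 CPM and *Xist* at 0.0 to 0.3196 CPM, so values of these tissues are also given without it. The brain hemi-section of DBA/1J mouse 1 also stood apart: its 4 cerebellum markers summed to 76.28 TPM, against 447.9 and 463.7 TPM in the other DBA/1J brains, 297.8 to 641.9 TPM in the 21 brains of the other groups and 60.0 to 92.66 TPM in dissected cortex. Results that rest on DBA/1J brains are therefore also given without this library, and the part of its low cerebellum marker sum in them was not tested.

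*Dio2* was lower in the mutants than in their wild-type controls in 12 of the 13 comparisons, in each of them without overlap of single mice, and was at the control level in h5 cerebellum. Mean TPM was 49.4% of control in h4 brain and 45.9% in h4 spinal cord, 59.9% to 67.8% in h2 and h3, and 82.4% and 82.1% in h1. *Dio2* was the 1 gene of 15351 that passed the count filter everywhere (0.00651%) with every mutant below every control in at least 12 of 13 comparisons, which is what it was chosen for. In bulk tissue, fewer cells of a type and less RNA per cell cannot be told apart.

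In brain hemi-sections, C57BL/6J mice had *Dio2* at 35.77, 33.37 and 40.63 TPM. The 3 h1 mice were at 29.78, 29.68 and 31.03 TPM, the nearest to the controls. The 4 h2 mice were at 25.97, 25.05, 21.92 and 20.40 TPM, and the 4 h3 mice at 23.56, 25.34, 24.42 and 24.03 TPM. These 8 mice all lay between the h1 and the h4 mice, and the means of h2 and h3 differed by less than the SD of h2. The 4 h4 mice were the lowest of the h1 to h4 mice, at 18.47, 19.91, 16.12 and 17.78 TPM. The log2 fold change, estimated with edgeR from counts, was -0.26 (SE 0.08) for h1, -0.63 (SE 0.09) for h2, -0.57 (SE 0.07) for h3 and -0.98 (SE 0.07) for h4. DBA/1J brains, at 24.98, 27.54 and 20.33 TPM, were already below C57BL/6J brains, and h5 brains were lower again at 13.55, 12.30 and 19.87 TPM, a log2 fold change of -0.75 (SE 0.15) against DBA/1J and of -0.725 without the DBA/1J brain low in cerebellum markers.

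In spinal cord the levels were lower and the order of the h1 to h4 means was the same as in brain. With h5 the order differed: the lowest mean was that of h5 in brain (15.2 TPM) and of h4 in cord (4.05 TPM). C57BL/6J cords had *Dio2* at 9.26, 8.02 and 9.19 TPM and h1 cords at 7.08, 7.18 and 7.46 TPM. The h2 cords were at 5.18, 6.09, 5.08 and 4.79 TPM, the h3 cords at 6.43, 5.42, 5.83 and 6.24 TPM, and the h4 cords at 4.56, 4.33, 3.18 and 4.13 TPM. All 15 mutant cords were thus below the lowest control. The log2 fold changes were -0.21 (SE 0.07), -0.75 (SE 0.07), -0.53 (SE 0.08) and -1.10 (SE 0.10) for h1 to h4. The h5 cords, at 4.61, 3.97 and 5.62 TPM, lay below the DBA/1J cords at 6.54, 6.84 and 6.42 TPM, with a log2 fold change of -0.50 (SE 0.12).

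**Figure D1:**
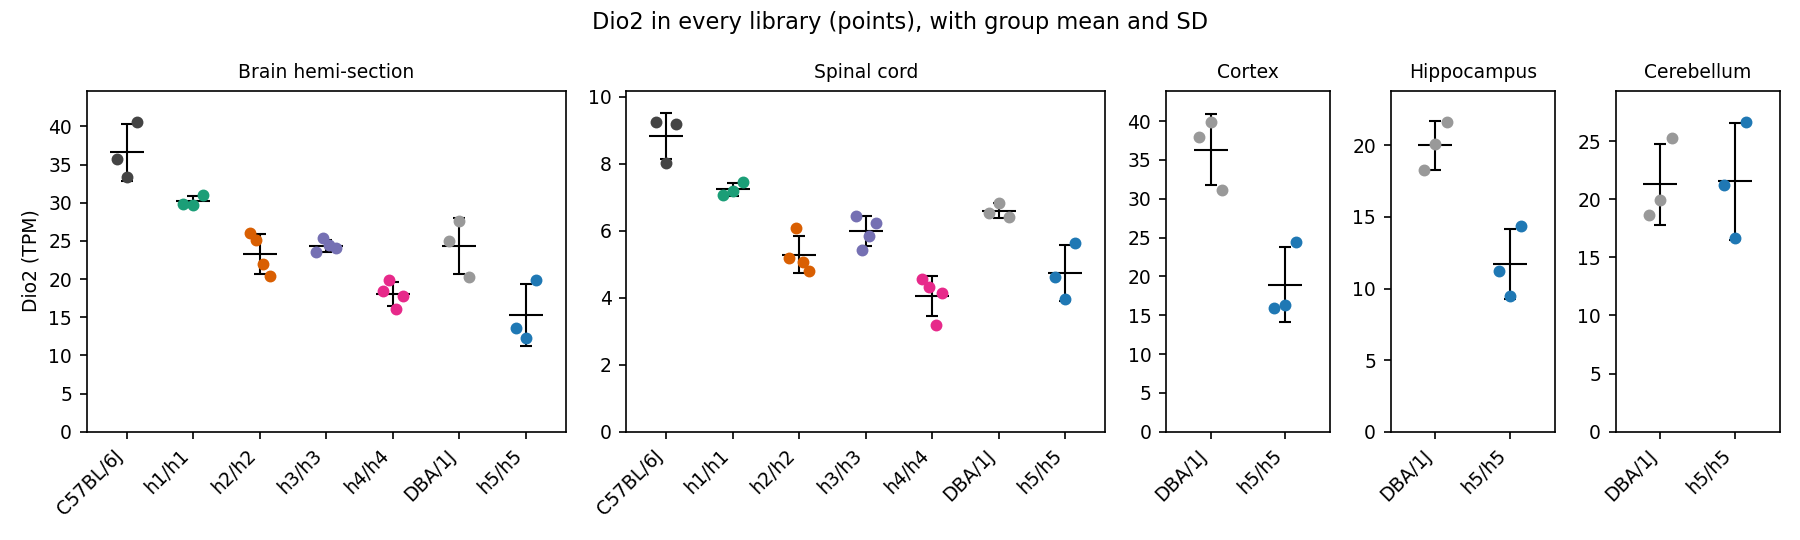
*Dio2* in TPM (vertical axes, from 0) for each library (points) of each group, with the group mean and SD (bars), in brain hemi-section, spinal cord and the 3 dissected regions. The h1 to h4 brains sit between 16.12 and 31.03 TPM, below the C57BL/6J brains at 33.37 to 40.63 TPM, whereas the DBA/1J and h5 cerebella share their range.

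The dissected regions of *Rorb* h5/h5 mice divided. In cortex, DBA/1J mice had *Dio2* at 37.90, 39.95 and 31.16 TPM and h5 mice at 15.98, 16.29 and 24.49 TPM, 52.1% of control and a log2 fold change of -1.02 (SE 0.17). In hippocampus, DBA/1J mice were at 18.26, 20.08 and 21.66 TPM and h5 mice at 11.21, 9.51 and 14.35 TPM, a log2 fold change of -0.81 (SE 0.12). In cerebellum, DBA/1J mice were at 18.64, 19.92 and 25.24 TPM and h5 mice at 21.25, 16.66 and 26.68 TPM, a range that takes in the controls, with a log2 fold change of 0.00 (SE 0.16). The mouse whose sex label did not match was the highest h5 mouse in all 3 regions, and without it the log2 fold change was -1.25 in cortex, -0.96 in hippocampus and -0.18 in cerebellum. The difference between regions was not tested.

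Several further values bear on *Dio2*. Over 12 or 13 other settings and left-out libraries per comparison, the fold change ranged from -0.35 to -0.17 for h1 brain, from -1.07 to -0.89 for h4 brain and from -1.25 to -0.87 for h5 cortex, and from -0.18 to 0.17 for h5 cerebellum. The h1 animals share the prefix of their identifiers with the C57BL/6J animals, so that the h1 values stand within a prefix; those of h2, h3 and h4 share none with it, so that strain and prefix cannot be told apart there. With the prefix as a block, the h5 log2 fold change was -0.64 for the hemi-section, -0.41 for the cord, -0.87 for the cortex, -0.75 for the hippocampus and 0.07 for the cerebellum. An antisense gene at the *Dio2* locus, *Gm26512*, reached at most 1.81 TPM in any library.

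Of the other 6 genes, 4 had no call in the main edgeR fit of any of the 13 comparisons, and *Hr* and *Klf9* had 2 each, all lower. Of those 4, DESeq2 called *Thrb* in h4 cord (adjusted p = 0.016) and *Slco1c1* in h5 cerebellum (adjusted p = 0.028). In brain, the adjusted p (edgeR quasi-likelihood test, Benjamini-Hochberg over all genes) was under 0.05 for none of the 6 in h1, h2, h3 and h5 and for *Hr* in h4. Of all genes, 0% were called in h1 brain, 0.136% in h2, 0.164% in h3, 0.703% in h4 and 0% in h5. Before adjustment, 1 of the 6 genes had a p under 0.05 in h1 brain, 1 in h2, 2 in h3 and none in h5, and DESeq2 called none in h1, h2 and h5 and 1, *Hr*, in h3. Of all genes, 745 of 17603 in h1 brain, 1311 of 17594 in h2, 1833 of 17688 in h3 and 1003 of 17299 in h5 had such an unadjusted p. Without the DBA/1J brain low in cerebellum markers, edgeR also called none of the 6 in h5 brain, with adjusted p from 0.90 to 0.98.

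In spinal cord, 5 of the 6 genes passed the filter, all but *Dio3*. None was called in h1 (0.289% of all genes), *Klf9* in h2 (2.09% of all), *Hr* in h3 (1.01% of all), *Klf9* in h4 (1.75% of all) and none in h5 (0.00581% of all, a single gene). Before adjustment 1 had a p under 0.05 in h1 cord and 1 in h5 cord, and DESeq2 called *Klf9* in h1 and none in h5. Such an unadjusted p was found for 1951 of 17309 genes in h1 cord and 1532 of 17210 in h5 cord. In the h5 regions none was called in cortex (0% of all genes), hippocampus (0.0118% of all) or cerebellum (0.012% of all), with 1, 0 and 1 of them under 0.05 before adjustment; DESeq2 called none, none and *Slco1c1*. Leaving out the mouse whose sex label did not match left the count of edgeR calls at 0 in each region. Of all genes, 1106 of 17220 in h5 cortex and 715 of 16961 in h5 hippocampus had an unadjusted p under 0.05 (edgeR).

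**Figure D2:**
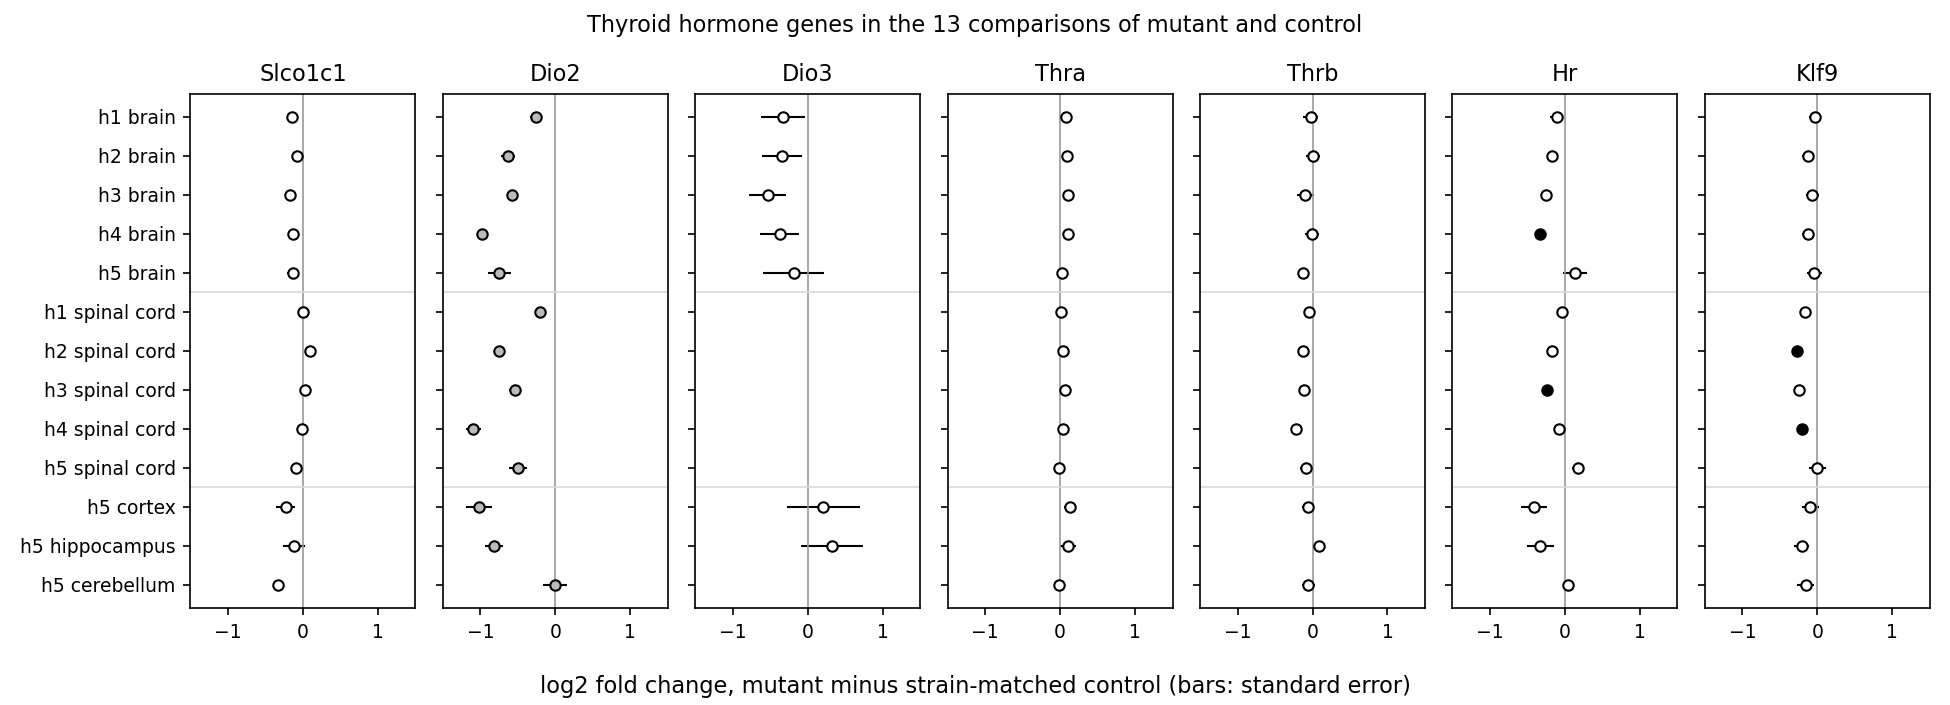
Log2 fold change of each gene, mutant minus the wild-type control used for its strain (horizontal axes, bars are the standard error), in the 13 comparisons (rows). Black points have an adjusted p under 0.05, open points do not, grey points are *Dio2*, which was not tested, and *Dio3* has no point where it did not pass the count filter; the *Dio2* points lie to the left in 12 rows while *Thra* stays between -0.02 and 0.13.

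*Slco1c1* (ENSMUSG00000030235, chr6:141524354-141570177), the thyroxine transporter, was close to control. C57BL/6J brains had it at 36.26, 41.49 and 39.63 TPM, and all 15 mutant brains lay between 32.05 and 37.84 TPM with a median of 34.76 TPM, so that the ranges overlap. The 4 h3 brains, at 33.84, 34.67, 34.76 and 33.56 TPM, were all below the controls, with a log2 fold change of -0.17 (SE 0.05, adjusted p = 0.241, edgeR). In cord, controls were at 27.93, 26.97 and 26.93 TPM and the 15 mutants at 24.58 to 31.01 TPM. The largest difference was in h5 cerebellum, where h5 mice were at 30.07, 32.32 and 27.89 TPM against 39.96, 38.68 and 35.47 TPM, without overlap. The log2 fold change there was -0.33 (SE 0.07, adjusted p = 0.532 with edgeR, 0.028 with DESeq2, 0.045 with no filter and 0.028 to 1.0 over all alternatives), and without the mouse whose sex label did not match it was -0.26 (adjusted p = 0.42). Choroid plexus, which also expresses *Slco1c1*, differed between these cerebella: its 4 markers summed to 1337, 2016 and 10.83 TPM in the h5 mice, the last being the mouse whose sex label did not match, against 3493, 3672 and 2527 TPM in DBA/1J, without overlap, and none of the 4 was at 0 in all mice of a group. Its part in the *Slco1c1* difference was not tested. Over the 13 comparisons the gene was lower in 10 and higher in 3, from -0.33 to 0.09, with the lowest adjusted p at 0.228.

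*Dio3* (ENSMUSG00000075707, chr12:110279230-110281097), the inactivating deiodinase, lies 19.54 Mb from *Dio2* and was scarce everywhere. C57BL/6J brains had it at 1.76, 1.29 and 1.12 TPM and the 15 h1 to h4 brains at 0.72 to 1.64 TPM. The log2 fold change was below 0 in each of the 5 brain comparisons, from -0.19 (SE 0.40) in h5 to -0.54 (SE 0.25) in h3, and no adjusted p passed the threshold, the h3 value being 0.484 with edgeR. In cortex and hippocampus of h5 mice it was 0.21 (SE 0.49) and 0.32 (SE 0.42), on levels of 0.42 to 0.72 TPM in cortex and 1.98 to 5.23 TPM in hippocampus. In spinal cord, 17 of 24 libraries were at 0 and the highest held 4 counts, 0.17 TPM, so a difference was not detectable at this depth, and neither cord nor cerebellum passed the filter between mutant and control.

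Neither receptor gene had a call between mutant and control in the main edgeR fits, which compare 2 groups with the count filter and no covariate. *Thra* (ENSMUSG00000058756, chr11:98740776-98769006), which encodes the main receptor of the brain and a splice form that does not bind the hormone, was the most abundant of the 7. C57BL/6J brains had it at 304.62, 341.03 and 323.19 TPM and h1 to h4 brains at 303.91 to 377.01 TPM, a range that takes in the controls. Its log2 fold change was between -0.02 and 0.13 in all 13 comparisons, above 0 in 11 of them, and its lowest adjusted p was 0.396 with edgeR. The highest value was in h5 cortex, where h5 mice had 423.50, 396.81 and 433.03 TPM and DBA/1J mice 358.81, 342.16 and 366.80 TPM; the groups do not overlap, and the log2 fold change was 0.13 (SE 0.08, adjusted p = 0.777, edgeR). The 3′ part of *Thra* overlaps the clock gene *Nr1d1* on the opposite strand, which reached 169.63 TPM, and RSEM was run with default parameters, with no strand setting named.

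*Thrb* (ENSMUSG00000021779, chr14:17659225-18040097) encodes the receptor of the pituitary, retina and inner ear, and is also expressed in cortex. In brain the C57BL/6J mice themselves were spread, at 14.32, 19.92 and 20.43 TPM, and the 15 mutants at 12.86 to 20.66 TPM covered that range. In spinal cord the spread was narrow. Controls were at 10.51, 10.04 and 10.06 TPM, h1 mice at 9.65, 9.31 and 9.33 TPM, h2 mice at 9.61, 9.79, 9.62 and 8.83 TPM, h3 mice at 9.68, 9.18, 8.88 and 9.34 TPM and h4 mice at 8.76, 9.08, 8.83 and 8.35 TPM. All 15 mutants were thus below the lowest control in TPM. The differences were small on the count scale, and none was called: the log2 fold change was -0.05 (SE 0.06) for h1, -0.13 (SE 0.05) for h2, -0.11 (SE 0.06) for h3 and -0.21 (SE 0.05, adjusted p = 0.0575, edgeR) for h4. In h1 cord the log2 ratio of mean TPM was -0.114 for *Thrb*. For each thyroid hormone gene tested there, that ratio lay below the count fold change, by 0.066 (*Thrb*) to 0.091 (*Hr*). Whether single h1 cords stay below the controls on the count scale was not examined. The h4 value passed with DESeq2 (0.016), with no filter (0.028), with sex as a covariate (0.05 after rounding) and in 1 fit of all cords (0.047), and ranged from 0.016 to 0.3 over its alternatives. The h5 cords at 8.78, 7.95 and 9.76 TPM overlapped the DBA/1J cords at 9.90, 9.52 and 9.30 TPM.

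*Hr* (ENSMUSG00000022096, chr14:70554056-70573548), the corepressor raised by thyroid hormone, was lower in h4 brain and h3 cord. C57BL/6J brains had it at 22.63, 20.73 and 16.91 TPM, and the 4 h4 brains at 16.38, 15.99, 14.42 and 13.57 TPM, all below the controls. The mean was 75.1% of control and the log2 fold change -0.33 (SE 0.07, adjusted p = 0.046, edgeR; 0.0012 to 0.18 over its alternatives). The lowest control lay close to the highest h4 mouse, and the call rests on single mice: the adjusted p was 0.18 without C57BL/6J mouse 1, 0.16 without C57BL/6J mouse 2, and 0.11, 0.13 and 0.15 without h4 mouse 2, 3 or 4, and 0.16 in 1 fit of all brains. *Hr* is highest in cerebellum in these data, and the 4 cerebellum markers summed to 542.5, 458.7, 297.8 and 352.1 TPM in the 4 h4 brains against 597.1, 641.9 and 458.8 TPM in the controls. The lowest *Hr* of each group thus stood in mice with the lowest marker sums, h4 mice 3 and 4 and control mouse 3. Without that control the log2 fold change was -0.42 (adjusted p = 0.0074), and the part of cerebellum content in the h4 value was not tested. The h1 brains were at 20.81, 20.25 and 16.05 TPM, the h2 brains at 16.71, 20.75, 16.94 and 19.11 TPM and the h3 brains at 16.10, 16.05, 17.81 and 16.74 TPM. These all overlap the controls, and the log2 fold changes were -0.11 (SE 0.09), -0.18 (SE 0.07) and -0.26 (SE 0.07), with an adjusted p of 0.231 for h3.

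In cord, *Hr* was at 13.58, 13.34 and 16.60 TPM in controls and at 13.21, 13.21, 11.95 and 11.89 TPM in h3 mice. The h3 mean was 86.6% of control and the log2 fold change -0.24 (SE 0.05, adjusted p = 0.0447, edgeR). The call was lost without any single one of the 7 mice (adjusted p from 0.058 to 0.20), with the replicate number as a block (0.083) with sex as a covariate (0.066) and in 1 fit of all cords (0.052), and the adjusted p was 0.005 to 0.2 over all alternatives. The h1, h2 and h4 cords had *Hr* at 11.67 to 15.42 TPM, overlapping the controls. In h5 mice the direction varied: the log2 fold change was 0.13 (SE 0.16) in brain, where mean TPM was 125.8% of DBA/1J, 0.17 (SE 0.07) in cord and 0.04 (SE 0.05) in cerebellum, and -0.41 (SE 0.17) in cortex and -0.33 (SE 0.18) in hippocampus, none called. Without the DBA/1J brain low in cerebellum markers the brain value turned to -0.034 (adjusted p = 0.98). In cortex DBA/1J mouse 3, at 13.59 TPM, stood below its group mates at 21.01 and 22.14 TPM and among the h5 mice at 12.70, 14.64 and 16.68 TPM; without it the log2 fold change was -0.60 (adjusted p = 0.027, edgeR; 0.027 to 1.0 over all alternatives).

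*Klf9* lies on chromosome 19, 4.03 Mb from *Rorb*. It was lower in the cords of the C57BL/6J-based mutants and overlapped the controls in their brains. Control cords had it at 48.31, 47.52 and 49.36 TPM. The h1 cords were at 39.18, 41.24 and 42.01 TPM, the h2 cords at 39.00, 43.51, 38.41 and 40.51 TPM, the h3 cords at 44.72, 37.59, 40.14 and 38.19 TPM, and the h4 cords at 39.92, 43.42, 40.21 and 42.46 TPM. All 15 mutants lay below all 3 controls, and the 4 strain means were 82.98% to 85.75% of control, close to each other, whereas *Dio2* in the same cords went from 45.9% to 82.1%.

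On the count scale the log2 fold change of *Klf9* in cord was -0.27 (SE 0.04, adjusted p = 0.0011, edgeR) for h2 and -0.20 (SE 0.04, adjusted p = 0.0162) for h4, both called, and -0.17 (SE 0.04, adjusted p = 0.0784) for h1 and -0.24 (SE 0.06, adjusted p = 0.102) for h3. The h2 call was kept without each of the 7 mice in turn and lost in 1 fit of all cords (adjusted p = 0.10; 7.9e-08 to 0.1 over its alternatives). The h4 call was lost in that fit (0.24) and without C57BL/6J mouse 1 (0.14), C57BL/6J mouse 3 (0.057) or h4 mouse 3 (0.057), within a range of 9.4e-04 to 0.24. The h1 and h3 values passed with DESeq2 (0.025 and 0.018), with no filter (0.0024 and 0.011), and, with edgeR, without C57BL/6J mouse 2 (h1, 0.048) or h3 mouse 1 (h3, 0.014), within ranges of 0.0024 to 0.58 and 0.011 to 0.35. In brain the controls were at 73.20, 81.38 and 91.67 TPM and the 15 mutants at 66.65 to 88.89 TPM, with log2 fold changes of -0.03 to -0.13 and none called. The h5 cords, at 24.92, 24.55 and 33.73 TPM, surrounded the DBA/1J cords at 25.63, 27.58 and 29.12 TPM, with a log2 fold change of 0.00 (SE 0.11), and the h5 brain, cortex, hippocampus and cerebellum had values of -0.04 to -0.21, none called. Differences between cord and brain, and between strains, in the *Klf9* change were not tested.

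**Figure D3:**
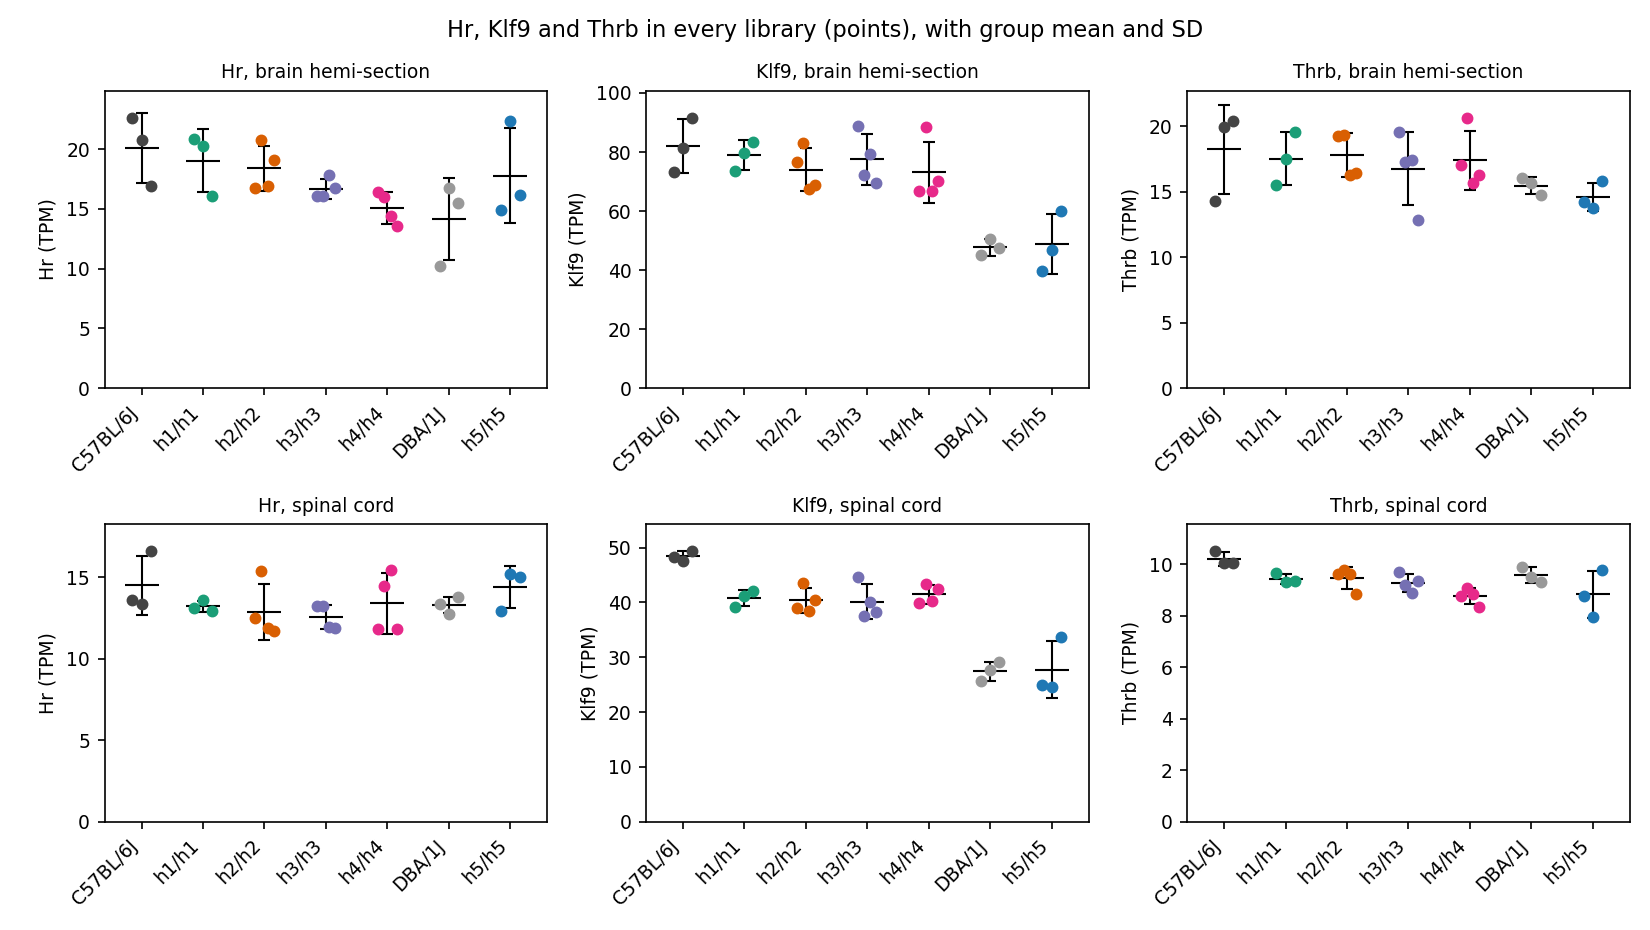
*Hr*, *Klf9* and *Thrb* in TPM (vertical axes, from 0) for each library (points) with group mean and SD (bars), in brain hemi-section (upper row) and spinal cord (lower row). The 15 h1 to h4 cords have *Klf9* at 37.59 to 44.72 TPM and *Thrb* at 8.35 to 9.79 TPM, below the C57BL/6J cords at 47.52 to 49.36 and 10.04 to 10.51 TPM, and DBA/1J mice have less *Klf9* than C57BL/6J mice in both tissues.

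Of the 6 genes other than *Dio2*, none had every h1 to h4 brain on one side of every C57BL/6J brain in TPM, beside 0.712% of the 17286 genes that passed the filter. *Dio2* had, and its low mutant values are what it was chosen for. In cord, 2 of the 5 other genes that passed the filter did in TPM, *Klf9* and *Thrb*, beside 0.983% of 17087 genes, and *Dio2* did as well. *Klf9* and *Thrb* are 2 genes, the 3 controls are the same for all 4 strains, and no test was made of this count. In h1 cord, TPM ratios of the thyroid hormone genes tested also lay below their count fold changes. Separation of single mice on the count scale was not examined. Within groups, the deviations of single mice from their group mean in *Dio2* and *Klf9* had a correlation of 0.63 over 24 brain libraries and 0.63 over 24 cord libraries, in *Thrb* and *Klf9* of 0.75 and 0.51, and in *Dio2* and *Hr* of -0.25 and 0.00. The other pairs of the 7 genes went from -0.37 (*Dio3* and *Thrb*) to 0.73 (*Thra* and *Thrb*) in brain. In cord they went from -0.23 (*Slco1c1* and *Dio3*) to 0.61 (*Dio2* and *Thrb*). Pairs of other genes were not examined. These libraries share their controls, RNA preparation and scaling, and the values are descriptions.

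The wider pathway was examined with a list of 41 other genes, 2 of which passed the filter in no comparison. In 479 tests over the 13 comparisons (edgeR), 2 were called lower and 2 higher, all in h2 and h3 cord, where 2.09% and 1.01% of all genes were called. Of the 479, 63 had an unadjusted p under 0.05, and DESeq2 called 7. Among all genes, an unadjusted p under 0.05 (edgeR) was found for 745 of 17603 in h1 brain, 1833 of 17688 in h3 brain and 2723 of 17464 in h2 cord. DESeq2 called 17 of 18090 genes in h1 brain and 581 of 13230 in h4 cord. The median log2 fold change of the list stayed between -0.02 and 0.03 in each comparison, beside medians over all genes of -0.0031 to 0.0050. *Aldh1a1*, a retinaldehyde dehydrogenase raised by thyroid hormone, was lower in h2 cord at -0.36 (SE 0.03, adjusted p = 1.31e-05) and in h3 cord at -0.29 (SE 0.04, adjusted p = 0.00353), and both calls held in all 7 fits that left out a mouse and all 6 other alternatives. The gene lies at chr19:20492583-20643463, 1.38 Mb from *Rorb*, and in the other cords it was at -0.03 (SE 0.04, adjusted p = 0.839) in h1, -0.05 (SE 0.03, adjusted p = 0.58) in h4 and 0.17 (SE 0.06, adjusted p = 0.544) in h5. In brain its log2 fold change was from -0.21 (SE 0.09, adjusted p = 0.632) in h2 to 0.18 (SE 0.07, adjusted p = 0.766) in h5, none called. Of the higher calls, *Dbp*, a clock output factor, was at 0.51 (SE 0.07, adjusted p = 4.68e-04) in h2 cord, and is named after its value was seen. That call was kept in all 7 fits that left out a mouse and in 5 of 6 other alternatives (highest adjusted p 0.2).

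By role, the 8 transporters had no lower and 1 higher call in 91 tests, with 21 unadjusted p under 0.05 and 2 calls by DESeq2. These counts and those that follow stand beside the all-gene counts given for the whole list. The binding proteins, crystallin mu and transthyretin, had none in 21 tests, and *Dio1* and the selenocysteine factors *Secisbp2* and *Trnau1ap*, which deiodinase synthesis needs, none in 26 tests, with 2 and 0 unadjusted p under 0.05. The 11 receptor partners (retinoid X receptors, corepressors and coactivators) had none in 143 tests, with 6 unadjusted p under 0.05. The 12 genes raised by thyroid hormone had 2 lower calls and 1 higher in 147 tests, with 26 unadjusted p under 0.05 and 5 calls by DESeq2. *Aldh1a3*, a gene lowered by the hormone, had none in 13 tests, with 2 unadjusted, and the 4 genes of hypothalamus and pituitary none in 38 tests, with 6 unadjusted. DESeq2 called none in the last 2 groups, in the binding, deiodination or partner groups.

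Single genes of some lists outside the pathway were called in h2, h3 and h4 mice. The lists were not tested as sets, and their edgeR calls stand beside 0% to 2.09% of all genes called per comparison. Their unadjusted and DESeq2 counts stand beside the all-gene counts given for the pathway list. Of 10 glucocorticoid-induced genes, 3 had a call, 12 lower and 0 higher in 130 tests (edgeR), with 39 unadjusted p under 0.05 and 18 calls by DESeq2. *Tsc22d3*, the glucocorticoid-induced leucine zipper, was at -0.48 (SE 0.07, adjusted p = 0.00609, edgeR) in h4 brain and at -0.24, -0.28 and -0.30 in h2, h3 and h4 cord, the h3 call being kept in 2 of 7 fits that left out a mouse. *Sgk1*, a kinase induced by glucocorticoids, was at -0.81 in h2 cord (SE 0.14, adjusted p = 0.00437) and -0.93 in h4 cord (SE 0.13, adjusted p = 0.00181), both lost in 1 fit of all cords (highest adjusted p 0.30 and 0.19). *Cdkn1a*, the cell cycle inhibitor p21, was called in the h2, h3 and h4 mice of both tissues, from -0.49 to -0.89, the h2 and h3 brain calls being kept in 2 and 3 of 7 fits that left out a mouse. Of 13 clock genes, 4 had a call, 3 lower and 2 higher in 169 tests, with 44 unadjusted p under 0.05 and 7 calls by DESeq2, and *Npas2* was at -0.60 in h2 cord and -0.77 in h4 cord.

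Single cell type markers were called in the same mice. Of 9 astrocyte markers, 4 had a call, 6 lower and 1 higher in 112 tests (edgeR), with 33 unadjusted p under 0.05 and 18 calls by DESeq2. *Gjb6*, the astrocyte connexin 30, was at -0.32 in h4 brain, -0.35 in h2 cord, -0.33 in h3 cord and -0.30 in h4 cord, kept in 1, 7, 5 and 4 of the 7 fits that left out a mouse. *Slc1a3*, the glutamate transporter GLAST, named after its value was seen, was higher in h4 cord, at 0.27 (SE 0.04, adjusted p = 0.00463, edgeR), and that call was kept in all 7. *Aqp4* and *Slc1a2*, also named after their values were seen, were lower in h2 cord, at -0.17 and -0.10, and kept in 2 and 0 of 7. Summed over the 9, astrocyte markers were at 1692 to 1780 TPM in C57BL/6J brains. The sums lay wholly below in h2 brains (1572 to 1661 TPM) and h3 brains (1552 to 1685 TPM), and overlapped in h1 brains (1598 to 1744 TPM) and h4 brains (1540 to 1736 TPM). In cord they were at 3178 to 3311 TPM in C57BL/6J, wholly below in h3 (2669 to 3142 TPM), and overlapping in h1 (3083 to 3194 TPM), h2 (3068 to 3385 TPM) and h4 (3096 to 3433 TPM). No astrocyte marker was at 0 in any C57BL/6J-based group. Of 7 endothelial markers, 2 had a call, 9 lower in 91 tests, with 22 unadjusted p under 0.05 and 11 calls by DESeq2. *Slc2a1*, the glucose transporter of brain capillaries, was at -0.33 in h4 brain and at -0.22, -0.23 and -0.21 in h2, h3 and h4 cord, and *Ly6c1* at -0.42 in h2 brain, -0.46 in h4 brain and -0.28, -0.31 and -0.39 in h2, h3 and h4 cord. Of the 7 fits that left out a mouse, the *Slc2a1* call was kept in 7 for h4 brain and in 6, 2 and 1 for h2, h3 and h4 cord. The *Ly6c1* call was kept in 0 and 6 for h2 and h4 brain and in 3, 2 and 7 for h2, h3 and h4 cord. The sum of the 7 was 243.1 to 272.7 TPM in C57BL/6J brains against 193.6 to 230.1 TPM in h4 brains, and 257.7 to 278.2 TPM against 221.2 to 233.7 TPM in the cords, without overlap. The h2 brains (219.5 to 227.7 TPM), the h3 brains (215.5 to 241.4 TPM) and the h1, h2 and h3 cords (214.1 to 253.1 TPM) were also below the controls, and the h1 brains (233.2 to 246.3 TPM) overlapped them. In h5 hippocampus the endothelial sum was 173.2 to 197.9 TPM against 201.3 to 215.3 TPM in DBA/1J, without overlap. The sums of the other h5 tissues overlapped those of DBA/1J. Tanycyte markers had 1 higher call in 50 tests, with 9 unadjusted p under 0.05 and 1 call by DESeq2. Of 5 neuron markers, *Syt1*, the synaptic vesicle protein synaptotagmin 1, named after its value was seen, held both calls of 65 tests, beside 11 unadjusted p under 0.05 and 4 calls by DESeq2. It was at -0.13 (SE 0.03, adjusted p = 0.0408, edgeR) in h2 cord and -0.20 (SE 0.04, adjusted p = 0.00922) in h4 cord, kept in 1 and 6 of the 7 fits that left out a mouse. Summed over the 5, neuron markers were at 3219 to 3342 TPM in C57BL/6J cords. The sums lay wholly below in h1 (2940 to 3058 TPM), h2 (3023 to 3163 TPM) and h4 cords (2997 to 3180 TPM). They overlapped in h3 cords (2931 to 3485 TPM) and in the brains of h1 to h4. The markers of oligodendrocytes and choroid plexus had no call in 65 and 46 tests, with 14 and 8 unadjusted p under 0.05 and 2 and 0 calls by DESeq2. The part of glucocorticoid response, clock phase or cell content in the *Dio2*, *Hr* and *Klf9* values was not tested.

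Between the wild-type strains, both *Dio2* and *Klf9* were lower in DBA/1J than in C57BL/6J. In brain *Klf9* was at 45.04, 50.62 and 47.37 TPM in DBA/1J, 58.1% of the C57BL/6J mean, with a log2 fold change of -0.73 (SE 0.08, adjusted p = 2.47e-04, edgeR). *Dio2* had a log2 fold change of -0.54 (SE 0.11, adjusted p = 0.0143) in brain, which was lost without C57BL/6J mouse 1 (0.052) or 3 (0.056) and with the replicate number as a block (0.056), within a range of 1.4e-05 to 0.056. In cord *Klf9* was at 56.7% of C57BL/6J, -0.83 (SE 0.05, adjusted p = 9.52e-08), *Dio2* at 74.8%, -0.42 (SE 0.08, adjusted p = 0.00192), and *Thra* at 94.2% in TPM and -0.23 on the count scale (SE 0.04, adjusted p = 6.22e-04). *Hr*, at -0.40 (SE 0.14, adjusted p = 0.122) in brain, passed with DESeq2 (0.023) and with no filter (0.034), within a range of 0.023 to 0.29. Without the DBA/1J brain low in cerebellum markers, *Klf9* was at -0.70 (adjusted p = 5.5e-04) and *Dio2* at -0.57 (adjusted p = 0.02) in brain, and *Slco1c1*, at -0.14 (SE 0.06, adjusted p = 0.179; 0.039 to 0.39 over its alternatives) with all mice, passed at -0.22 (adjusted p = 0.039), and *Hr* moved to -0.24 (adjusted p = 0.12). With all mice 2 of 7 genes were called in brain, where 11.2% of all genes were, against 3 without that library. In cord, 3 of the 6 that passed the filter were called, where 21.3% of all genes were. Astrocyte markers also differed between the strains. Their sum was 1378 to 1399 TPM in DBA/1J brains against 1692 to 1780 TPM in C57BL/6J brains, and 2197 to 2616 TPM against 3178 to 3311 TPM in cord, but *S100b* was listed at 0.0 to 0.04 TPM in DBA/1J and at 182.72 to 223.69 TPM in C57BL/6J brains and 688.6 to 719.74 TPM in C57BL/6J cords. Without *S100b* the sum of the other 8 was still lower in DBA/1J brains, at 1378 to 1399 against 1509 to 1557 TPM, and overlapped in cord, at 2197 to 2616 against 2489 to 2601 TPM. The part of astrocyte content in the strain difference of *Dio2* was not tested. The h5 brains had about the same *Klf9* as DBA/1J brains and less *Dio2*. Strain is not separated from age or from the prefix of the animal identifiers in these 2 comparisons.

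All 7 genes were lower in spinal cord than in brain of C57BL/6J mice, where 56.9% of all genes were called in either direction. Brain and cord of a strain came from the same mice, and the fits given here hold no term for the mouse. *Dio2* had a log2 fold change of -2.03 (SE 0.09, adjusted p = 3.57e-10, edgeR), at 24.1% of the brain level in TPM, and -1.91 (SE 0.11, adjusted p = 4.98e-07) in DBA/1J. *Dio3* was nearly absent from cord: 160 counts in 3 C57BL/6J brains stood against 1 in the 3 cords, a ratio of 159.5 with an exact 95% interval of 28.22 to 6339 for counting error only, and 77 against 4 in DBA/1J, a ratio of 21.0 (7.88 to 79.1). *Slco1c1* was at -0.50 (SE 0.05, adjusted p = 2.9e-06), *Thra* at -0.76 (SE 0.05, adjusted p = 1.19e-08), *Thrb* at -0.79 (SE 0.09, adjusted p = 6.96e-06) and *Klf9* at -0.74 (SE 0.07, adjusted p = 4.37e-07). *Hr* was at -0.37 (SE 0.08, adjusted p = 9.14e-04) in C57BL/6J. In DBA/1J, 6 of 7 genes were called, all lower in cord (50.8% of all genes), the exception being *Hr* at -0.13 (SE 0.14, adjusted p = 0.463); without the brain of DBA/1J mouse 1, the library low in cerebellum markers, which was at 10.23 TPM against 16.73 and 15.45 TPM in the others, it was -0.29 (adjusted p = 0.0067; 0.0067 to 0.93 over all alternatives). The other 6 calls were kept without that library, with *Dio2* at -1.89 and *Klf9* at -0.87.

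The 3 regions of wild-type DBA/1J mice each had their own mixture. They came from the same 3 mice, and the fits given here hold no term for the mouse. Cerebellum had the highest *Hr*, at 48.21, 46.39 and 43.20 TPM, cortex 21.01, 22.14 and 13.59 TPM and hippocampus 5.71, 5.44 and 5.12 TPM. The log2 fold change was 1.12 (SE 0.15, adjusted p = 1.65e-04, edgeR) for cerebellum against cortex, -1.83 (SE 0.17, adjusted p = 1.95e-04) for hippocampus against cortex and -2.98 (SE 0.08, adjusted p = 6.75e-11) for hippocampus against cerebellum. *Thrb* was lowest in cerebellum, where *Hr* was highest, with 6.37, 6.18 and 5.95 TPM in cerebellum, 22.79, 26.38 and 22.16 TPM in cortex and 15.71, 18.20 and 18.92 TPM in hippocampus. Its log2 fold change was -2.21 (SE 0.09, adjusted p = 3.24e-08) for cerebellum against cortex and -0.51 (SE 0.09, adjusted p = 0.00476) for hippocampus against cortex.

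*Thra* was highest in hippocampus, at 517.63, 469.91 and 497.17 TPM, and lowest in cerebellum, at 255.17, 262.86 and 229.14 TPM, a log2 difference of 1.17 (SE 0.06, adjusted p = 2.03e-08, edgeR). *Dio2* was highest in cortex, 0.93 (SE 0.11, adjusted p = 6.95e-04) above hippocampus and 1.02 (SE 0.14, adjusted p = 2.25e-04) above cerebellum on the log2 scale, while hippocampus and cerebellum differed by 0.07 (SE 0.11, adjusted p = 0.62; 0.23 and 0.019 without cerebellum mouse 3; 0.019 to 1.0 over all alternatives). *Dio3* was highest in hippocampus, at 1.54, 3.11 and 3.44 TPM, 2.31 (SE 0.47, adjusted p = 0.00923) above cortex and 3.63 (SE 0.37, adjusted p = 6.27e-06) above cerebellum. *Slco1c1* was lower on the count scale in cerebellum than in cortex by 0.50 (SE 0.12, adjusted p = 0.00715), although in TPM the ranges overlapped, at 35.47 to 39.96 against 38.31 to 52.48 TPM, and than in hippocampus by 0.57 (SE 0.11, adjusted p = 8.86e-04). Choroid plexus markers summed to 2527 to 3672 TPM in these cerebella, 1480 to 6161 TPM in hippocampus and 19.93 to 868.7 TPM in cortex. The part of choroid plexus in the *Slco1c1* values was not tested. For cerebellum against cortex, the count fold changes of the 6 genes that passed the filter all lay below the log2 ratios of mean TPM, by 0.156 to 0.264. *Klf9* was the most even, at 101.6% of cortex in cerebellum in TPM and -0.21 (SE 0.09) on the count scale. Its adjusted p was 0.0743, 0.112 and 0.494 in the 3 pairs, falling to 0.0026 and 0.0054 for the pairs with cortex when cortex mouse 1 was left out, within ranges of 0.0026 to 0.25 and 0.0054 to 0.33. Of 6 genes that passed the filter, 5 were called between cerebellum and cortex (58.1% of all genes), and 5 of 7 between hippocampus and cortex (20.6% of all) and between hippocampus and cerebellum (64% of all).

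**Figure D4:**
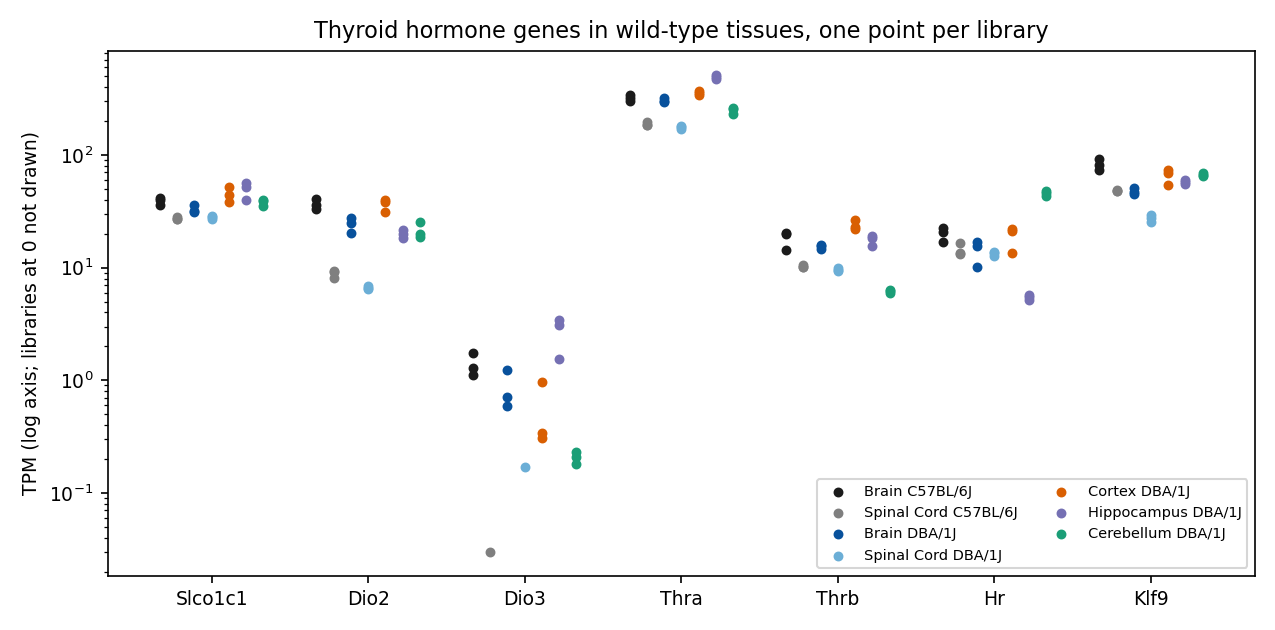
Level of the 7 genes in TPM (vertical log axis) in the wild-type C57BL/6J and DBA/1J groups, 1 point per library, libraries at 0 not drawn. *Thra* is the most abundant and *Dio3* the least in every tissue, *Hr* is highest in cerebellum at 43.20 to 48.21 TPM and *Thrb* is lowest there at 5.95 to 6.37 TPM.

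Over all 20 groups, TPM is given per transcript length, so levels can be set beside each other. *Dio2* was highest in C57BL/6J brain, 36.6 ± 3.70 TPM (SD, n = 3), and DBA/1J cortex, 36.3 ± 4.599 TPM (n = 3), which do not differ beyond their spread, then in h1 brain at 30.2 ± 0.752 TPM (n = 3). From h3 brain at 24.3 TPM down to h5 hippocampus at 11.7 TPM each group differed from the next by less than the larger SD of the pair. The 7 cord groups were the lowest, from 8.82 ± 0.697 TPM in C57BL/6J (n = 3) to 4.05 ± 0.606 TPM in h4 (n = 4). *Klf9* was highest in C57BL/6J brain at 82.1 ± 9.26 TPM and lowest in DBA/1J cord at 27.4 ± 1.75 TPM (n = 3 each), but h1 brain at 78.9 ± 5.02 TPM (n = 3) lay within the spread of the first and h5 cord at 27.7 ± 5.20 TPM (n = 3) within that of the second. *Thrb* was highest in h5 cortex at 24.3 ± 1.27 TPM and DBA/1J cortex at 23.8 ± 2.28 TPM, within their spread. *Hr* was highest in h5 cerebellum at 49.2 ± 0.848 TPM and lowest in h5 hippocampus at 4.62 ± 1.75 TPM. DBA/1J hippocampus, at 5.42 ± 0.295 TPM, differed from the latter by less than the h5 SD but by more than its own. The order by CPM kept the same highest group for 6 of the 7 genes, the exception being *Thrb*.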

How the data were processed

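RNA with a poly(A) tail was sequenced as pairs of reads from the 66 libraries, and the labels put each library in its group. The authors trimmed reads with Trim Galore, checked them with FastQC, aligned them to GRCm38 with STAR and estimated expected counts and TPM per gene with RSEM at default parameters, both of which are deposited per library, and compared groups pairwise with DESeq2. Deposited TPM values are scaled for transcript length and depth, and TPM of a few very abundant genes can shift the others, so that TPM ratios and fold changes from counts can differ: over 120 tested values of the members other than *Dio3*, the log2 difference between both scales had a median of 0.039 and a maximum of 0.264, 15 were above 0.1 and 8 had opposite signs. No strand setting is named, and the annotation version is not given in the sources used here. Symbols were joined to 41407 of 45706 identifiers.

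Expected counts, 5.07% of them not whole, were rounded and fitted with edgeR 4.0.16 in R 4.3.3 (TMM scaling, filterByExpr, quasi-likelihood test) on the 2 groups compared, with Benjamini-Hochberg adjustment over the 16669 to 17789 genes tested and a threshold of 0.05. Log2 fold changes are edgeR's and carry a prior count. Each SE is the absolute log2 fold change divided by the square root of the F statistic of the quasi-likelihood test. Scripts were tested on simulated data. Groups held 3 or 4 mice by the labels, which give more mice for h2, h3 and h4 than the study's text, and all labelled libraries were used; 0 of 78 pairs of replicates were identical, and p-values measure the spread between these mice.

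The genes and lists were chosen with earlier results of these data known. Genes named are the 7 members, *Rorb* as a check of the labels, list genes with an adjusted p under 0.05 in 2 or more of the 13 comparisons, and for each member the 3 genes of mean TPM of 1 or more with the highest Pearson correlation of log2(TPM + 1) over the 20 group means. Alternatives were DESeq2 1.42.0, its size factors in edgeR, no filter, the replicate number as a block, labelled sex as a covariate, 1 fit of all groups of a tissue, the identifier prefix as a block for h5, and leaving out each mouse. Same-numbered samples deviated together, with every correlation over 0.1, in h1 brain (0.182 to 0.399), h4 brain (0.201 to 0.273), h4 spinal cord (0.118 to 0.297) and h5 hippocampus (0.112 to 0.311), and in tissue comparisons a number marks 1 animal. The values of 1 listed gene are not reported here.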

Additional observations from a re-analysis of the deposited data

Results flagged for a closer look

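In 42 sets of 4 mice (7 genes in 6 groups) examined for a mouse far from its group, 3 sets had at least 3 mice at 0, where any count in the remaining mouse meets the criterion, so that these say nothing. They hold *Dio3* in spinal cord at 0.03 TPM in h2 mouse 2 and at 0.07 TPM in h4 mouse 3, with the other 3 mice of each group at 0. Of the other 39 sets 1 was found, and chance gives about 1 in 20. *Klf9* in h4 brain was at 88.61 TPM in mouse 2 and at 66.65 to 70.11 TPM in the other 3, the gap taking 0.842 of the range.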

How the results depend on the processing

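Directions of *Dio2* did not turn in any alternative other than in h5 cerebellum and between hippocampus and cerebellum. Of 111 recounts of genes called under other settings 94 were within 1.5 times the reported count, and of 126 without 1 mouse 109. DESeq2 called 1 gene in h3 brain, 1 in h1 cord, 2 in h3 cord, 2 in h4 cord and 1 in h5 cerebellum; no filter gave 1 in h1 cord, 2 in h2 cord, 2 in h3 cord, 2 in h4 cord and 1 in h5 cerebellum; sex as a covariate gave 0 in h3 cord and 2 in h4 cord; 1 fit of all groups gave 0 in h4 brain, h2 cord and h3 cord. With the replicate number as a block, 0 were called in h3 cord and 1 in DBA/1J against C57BL/6J brain, and the block moved no other count by over 1.5 times. Without 1 mouse the count was 0 to 1 in h4 brain, h1, h3 and h4 cord and h5 cortex, and 1 to 3 between the strains in brain. The cause of these shifts was not tested.

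Uncalled log2 fold changes turned sign, among them *Dio3*, at 0.32 in h5 hippocampus and 0.21 in h5 cortex with all mice. The replicate block gave 0.01 for *Thrb* in h4 brain (0.009), 0.015 for *Slco1c1* in h4 cord and -0.009 for *Klf9* in h5 cord. Sex as a covariate gave 0.008 for *Slco1c1* in h4 cord and, in h5 cord, 0.001 for *Thra* and -0.048 for *Klf9*, which was -0.001 in 1 fit of all cords. The identifier prefix as a block gave, in h5 brain, -0.012 for *Thra* and 0.032 for *Klf9*, in h5 hippocampus 0.081 for *Slco1c1* and -0.528 for *Dio3*, and in h5 cerebellum 0.005 for *Klf9*.

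Without 1 mouse, *Slco1c1* went from -0.012 to 0.036 in h1 cord, -0.045 to 0.027 in h4 cord, -0.266 to 0.002 in h5 hippocampus and -0.024 to 0.259 between hippocampus and cortex. *Dio2* went from -0.03 to 0.228 between hippocampus and cerebellum, and *Dio3* from -0.685 to 0.044 in h5 brain, -0.102 to 0.879 in h5 cortex and -0.266 to 0.618 in h5 hippocampus. *Thra* went from -0.009 to 0.094 in h5 brain, -0.021 to 0.001 in h5 cord, -0.025 to 0.174 in h5 hippocampus and -0.047 to 0.011 in h5 cerebellum. *Thrb* went from -0.141 to 0.074, -0.099 to 0.11, -0.211 to 0.0 and -0.12 to 0.092 in h1 to h4 brain. *Hr* went from -0.034 to 0.241 in h5 brain, and *Klf9* from -0.083 to 0.058 in h1 brain, -0.145 to 0.024 in h3 brain, -0.18 to 0.051 in h5 brain and -0.158 to 0.08 in h5 cord. Depth limits *Dio3* in cord.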

Other observations

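Some genes had a pattern over the 20 group means much like that of a thyroid hormone gene, among 15390 genes ranked by Pearson correlation of log2(TPM + 1). The groups share their animals and tissues, so these values describe likeness across tissue and strain. Among the 3 genes most like *Slco1c1* were *Tub* (r = 0.95) and *Abhd2* (0.949). *Dio2* was most like *Rims1*, a presynaptic scaffold (0.941), *Osbpl3* (0.94) and *Rlbp1*, a retinaldehyde-binding protein of glia and retina (0.931). *Thra* was most like *Wasf1* (0.993), *Fkbp1a* (0.992) and *Ccdc112* (0.991), and *Thrb* like *Adcy2* (0.992), *Cacng3* (0.986) and *Drc1* (0.986). *Hr* was most like *Cux1* (0.976), *Cacng7* (0.972) and *Ptchd1* (0.966), and *Klf9* like *Hivep3* (0.951), *Ptms* (0.936) and *Oxr1* (0.935). *Dio3* was most like *Pcdh20* (0.98), *Nt5dc3* (0.978) and *Spink8* (0.977). With a pseudocount of 0.1 the 3 genes of *Dio3* and *Oxr1* left the top 3, and *Spink8* also did with a mean TPM of 5 or more.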
